A study of Mus musculus with 12 samples.

Results

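The genes described here were 10 members of the Nrf2 antioxidant pathway, chosen by their symbols among the 49585 genes of the deposited expression table. They were Nfe2l2, Keap1, Nqo1, Gclm, Gclc, Srxn1, Txnrd1, Slc7a11, Gsr and Prdx1. All 10 symbols were found, each in 1 row. The table held 12 RNA libraries of RAW264.7, a mouse macrophage-like line of tumour origin grown in DMEM with 10% FBS. Every culture received 10 ng/mL LPS, a bacterial agonist of Toll-like receptors, together with 10 ng/mL mouse IFN-γ. In 6 of them 50 µM Mdivi-1, which is used to block Drp1, the GTPase that divides mitochondria, was added along with these stimuli. RNA was taken at 24 h or 96 h, which gave 4 groups of 3 libraries. Unstimulated cells were not analysed here, and the labels do not say whether cells without Mdivi-1 received its solvent. The labels also do not say that libraries of a group came from separate cultures, and the p-values below cover only how much these samples varied.

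Nrf2, the protein of Nfe2l2, is a transcription factor held at low levels by Keap1, the adaptor that presents it to a ubiquitin ligase. Oxidants and electrophiles modify cysteines of Keap1, Nrf2 then accumulates, and with small Maf proteins it binds antioxidant response elements near its target genes. The targets make glutathione, recycle thioredoxin and peroxiredoxin and detoxify quinones. In macrophages the pathway is known to limit oxidative damage and inflammatory gene expression. Since Nrf2 is controlled mainly through the stability of its protein, the transcript level of Nfe2l2 is not a measure of its activity.

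Expression is given in TPM, a measure of transcript share that is corrected for transcript length, so that levels of different genes can be set side by side within a library. The libraries were of 3 kinds. In 24 h libraries 1 and 2 of both groups, RNA of the mitochondrial chromosome took 5.20% to 6.68% of the TPM total, against 58.6% to 80.8% in the 6 libraries of 96 h. In both 24 h libraries numbered 3 it took 95.2% and 96.0%, and there the 10 genes stood at 0.101 to 1.40 TPM without Mdivi-1 and at 0.0666 to 0.522 TPM with it. Results are given without these 2 libraries, and beside them from all 12. Olfactory, vomeronasal and trace amine receptor genes (1441 genes), most of which are not known to be expressed in macrophages, had a median of 0 TPM in 24 h libraries 1 and 2. At 96 h their median in libraries 1, 2 and 3 stood at 2.71, 2.11 and 0.501 TPM in the untreated group and at 1.28, 1.38 and 1.87 TPM with Mdivi-1. These medians serve below as a background level at 96 h. All 9 macrophage markers matched in the table, Lyz2, Cd68, Adgre1, Csf1r, Cd14, Spi1, Tyrobp, Fcgr3 and Ptprc, were above 1 TPM in these 10 libraries. At 96 h, 7 to 9 of the 9 lay above the receptor median of their library and 5 to 9 above its 90th percentile, and Csf1r was above the median in 4 of 6 libraries and above that percentile in 1. Their summed level was 18362 to 20547 TPM at 24 h and 268 to 410 TPM at 96 h. Time and the kind of library cannot be told apart in this design, nor, in bulk RNA, can fewer cells of a type and less RNA per cell.

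The bases before the annotated gene start show where the recognition sequence of Nrf2 could lie. The RefSeq promoter table (GRCm38.p6) held 10 windows of 250 bases for 8 of the 10 genes, with no entry for Gclc and Gsr. The core of the antioxidant response element, TGACNNNGC, was searched on both strands, and no other motif was searched. It was present in 4 of the 10 windows, those of Nfe2l2, Gclm, Prdx1 and 1 of 3 windows of Txnrd1. Of all 32851 windows in the table, 10.2% held it. These 4 windows are shown 5′ to 3′ on the strand of the gene, with the match in capitals. In Gclm, Txnrd1 and Prdx1 the match is on the opposite strand and so reads GCNNNGTCA.
Nfe2l2, chr2:75704664-75704913, minus strand: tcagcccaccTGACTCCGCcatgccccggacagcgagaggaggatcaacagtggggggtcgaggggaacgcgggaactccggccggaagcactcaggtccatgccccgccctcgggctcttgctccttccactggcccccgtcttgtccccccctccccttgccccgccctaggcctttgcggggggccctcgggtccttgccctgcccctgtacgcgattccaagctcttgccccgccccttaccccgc
Gclm, chr3:122245307-122245556, plus strand: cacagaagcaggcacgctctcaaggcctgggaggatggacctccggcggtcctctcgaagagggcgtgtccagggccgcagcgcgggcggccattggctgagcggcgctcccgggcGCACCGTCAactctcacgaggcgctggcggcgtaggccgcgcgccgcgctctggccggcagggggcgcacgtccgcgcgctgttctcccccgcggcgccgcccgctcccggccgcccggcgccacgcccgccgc
Txnrd1, chr10:82858956-82859205, plus strand: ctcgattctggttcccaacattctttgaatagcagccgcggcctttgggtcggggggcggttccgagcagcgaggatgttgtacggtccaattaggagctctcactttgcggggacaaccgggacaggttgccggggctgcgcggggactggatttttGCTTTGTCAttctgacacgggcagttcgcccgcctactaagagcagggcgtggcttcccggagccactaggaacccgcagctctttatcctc
Prdx1, chr4:116685349-116685598, plus strand: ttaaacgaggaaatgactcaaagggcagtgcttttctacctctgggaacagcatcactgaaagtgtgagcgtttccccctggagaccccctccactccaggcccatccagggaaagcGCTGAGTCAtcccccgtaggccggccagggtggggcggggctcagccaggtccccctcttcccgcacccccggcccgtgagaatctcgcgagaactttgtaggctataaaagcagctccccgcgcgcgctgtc
A match in a window is a description of its letters and not a binding site. The windows of Keap1, Nqo1, Srxn1 and Slc7a11 and the other 2 of Txnrd1 do not hold these letters. Of the 4 genes shown, Prdx1 and Gclm were higher with Mdivi-1 at 24 h in both libraries, whereas Nfe2l2 and Txnrd1 were lower.

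At 24 h the pathway was well expressed and its members covered a wide range of levels. Without Mdivi-1 the order from high to low was Prdx1, Nfe2l2, Txnrd1, Gsr, Srxn1, Keap1, Gclm, Gclc, Slc7a11 and Nqo1. Prdx1, a peroxiredoxin that reduces hydrogen peroxide, was at 1102 and 931 TPM in libraries 1 and 2. Nfe2l2 followed at 102.7 and 106.5 TPM, and Nqo1, the quinone reductase often used as a readout of the pathway, was lowest at 2.69 and 0.971 TPM. No neighbours in this order overlapped between their libraries. With Mdivi-1 Prdx1 was again highest and Nqo1 lowest, while the ranges of Srxn1, Nfe2l2, Txnrd1 and Gsr overlapped one another in turn, as did those of Keap1 and Gclm. At 96 h Prdx1, Txnrd1 and Gsr were the 3 highest members in both groups and did not overlap. Below them most neighbours overlapped without Mdivi-1. With Mdivi-1 Srxn1 overlapped with Gclm, and Gclc, Nqo1 and Keap1 overlapped in turn. Gclm, Nfe2l2 and Slc7a11 there each lay above the next member without overlap.

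**Figure D1:**
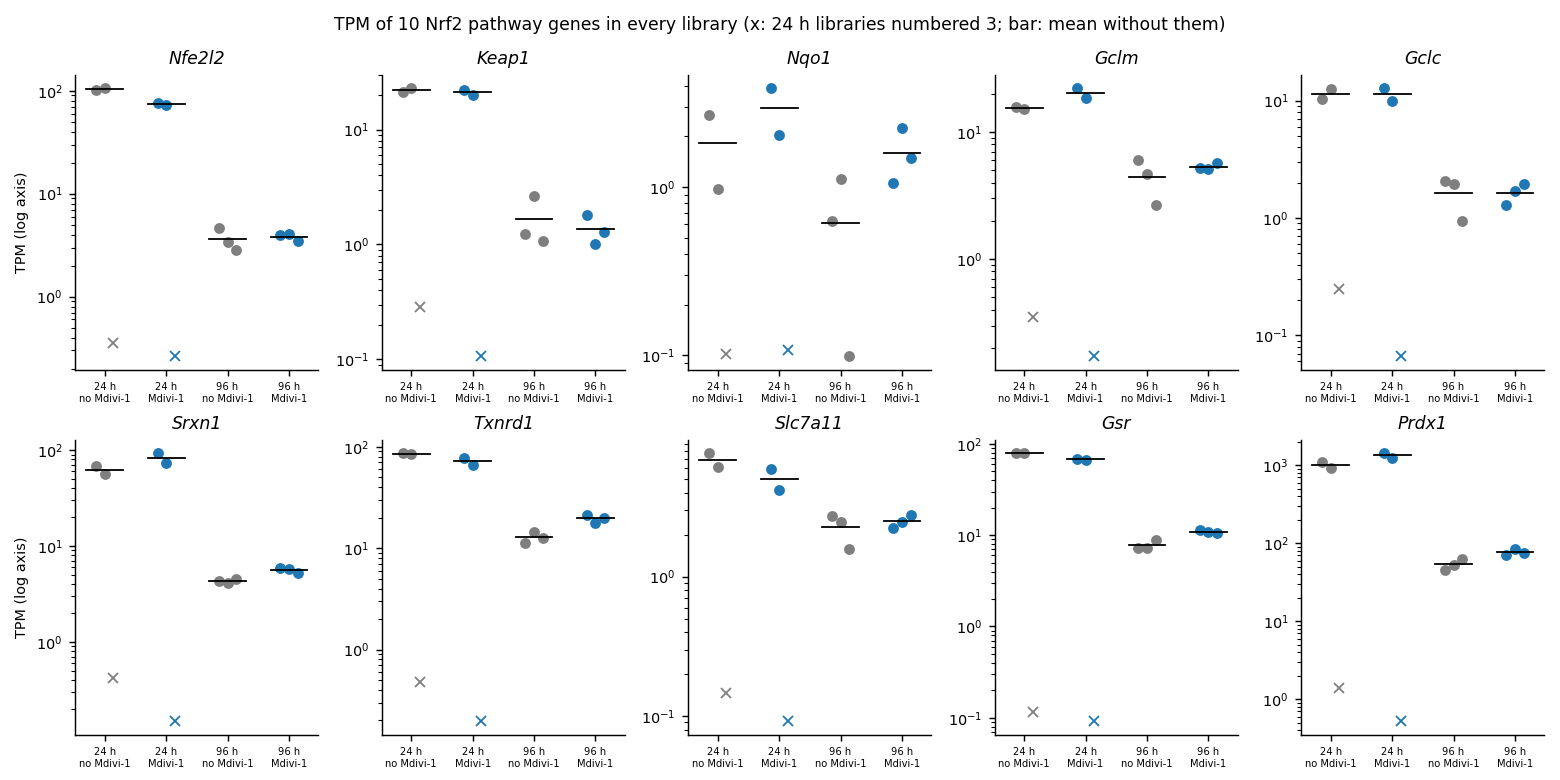
TPM (log axis) of each gene in every library, grouped by time and Mdivi-1, with bars at the group mean and crosses for the 24 h libraries numbered 3, which are left out of the means. Without those crosses, every gene but Nqo1 has its 24 h libraries above its 96 h libraries.

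With Mdivi-1 at 24 h the regulator and part of its targets lay on opposite sides of the untreated level. Nfe2l2 was lower in both libraries, whereas Prdx1, Srxn1 and Gclm were higher in both. In the model of 10 libraries none of the 10 genes was called by limma at an adjusted p under 0.05, where 0.295% of all 19631 genes were called. Nfe2l2, Srxn1 and Prdx1, 3 of the 10, had an unadjusted p under 0.05 in limma's test, as had 1205 of the 19631 genes. In a model of 24 h libraries 1 and 2 alone, 4 of the 10 were called: Nfe2l2 fell, and Prdx1, Gclm and Srxn1 rose. In that model 21.2% of 11105 genes were called lower and 0.666% higher, and the median of all genes was -0.22 log2. With all 12 libraries 0 genes passed limma's test, and 15 had an unadjusted p under 0.05, of which 0 were among the 10, and the SE of Nfe2l2 was 1.88 around -0.35 log2.

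Nfe2l2 (ENSMUSG00000015839) stood at 102.7 and 106.5 TPM without Mdivi-1 and at 76.7 and 73.1 TPM with it. The 2 groups did not overlap, and the libraries of each lay close together. The change was -0.48 ± 0.17 (log2, SE, n = 2 libraries per group, adjusted p = 0.546) with the spread of all 10 libraries, and the same value had an SE of 0.07 (adjusted p = 0.00234) with the 24 h libraries alone. Its inhibitor Keap1 (ENSMUSG00000003308) was at 21.4 and 23.0 TPM without and 21.9 and 20.1 TPM with Mdivi-1, so its groups overlapped (-0.08 ± 0.27).

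Prdx1 (ENSMUSG00000028691) was at 1102 and 931 TPM without Mdivi-1 and at 1422 and 1247 TPM with it. Its log2 change was 0.39 ± 0.17 (adjusted p = 0.761) in the model of 10 libraries and had an adjusted p of 0.0150 with the 24 h libraries alone. Srxn1 (ENSMUSG00000032802), sulfiredoxin, repairs peroxiredoxins that have been overoxidised. It was at 68.1 and 56.6 TPM without and 92.8 and 73.6 TPM with Mdivi-1, a change of 0.41 ± 0.15 (adjusted p = 0.580, and 0.0429 with the 24 h libraries alone). For both genes the lower treated library lay above the higher untreated one.

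The glutathione branch was less even. Gclm (ENSMUSG00000028124), the modifier subunit of glutamate-cysteine ligase, was at 15.6 and 15.0 TPM without and 22.2 and 18.5 TPM with Mdivi-1 (0.38 ± 0.26, adjusted p = 1, and 0.0390 with the 24 h libraries alone). Gclc (ENSMUSG00000032350), the catalytic subunit of the same enzyme, was at 10.3 and 12.6 TPM without and 12.8 and 9.96 TPM with it. Its groups overlapped, and its log2 change was -0.01 ± 0.26. Slc7a11 (ENSMUSG00000027737), which imports the cystine used for glutathione, was at 7.68 and 6.12 TPM without and 5.88 and 4.21 TPM with Mdivi-1 (-0.39 ± 0.25, adjusted p = 1). Gsr (ENSMUSG00000031584), which reduces oxidised glutathione, was at 78.7 and 79.1 TPM without and 69.1 and 66.6 TPM with Mdivi-1 (-0.21 ± 0.12, adjusted p = 1). Neither Slc7a11 nor Gsr was called with the 24 h libraries alone (adjusted p = 0.112 and 0.0674).

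Txnrd1 (ENSMUSG00000020250), the reductase that recycles thioredoxin, was at 86.3 and 84.5 TPM without Mdivi-1 and at 77.3 and 66.0 TPM with it (-0.25 ± 0.14, adjusted p = 1, and 0.0701 with the 24 h libraries alone). Nqo1 (ENSMUSG00000003849) was at 2.69 and 0.971 TPM without and 3.87 and 2.05 TPM with Mdivi-1, and its groups overlapped (0.52 ± 0.44). Counted over all members, 3 of 10 had non-overlapping groups with higher values under Mdivi-1, against 2.94% of all genes. Another 4 of 10, Nfe2l2, Txnrd1, Slc7a11 and Gsr, had non-overlapping groups with lower values, against 40.4% of all genes. The median change was -0.04 log2 over the 10 genes and -0.06 over all 19631 genes tested. It was -0.22 over the 11105 genes tested with the 24 h libraries alone, and -0.18 over 5813 genes with a mean of at least 5 TPM. Shares without overlap were not computed for these smaller sets.

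The direction of some members at 24 h depended on the scaling. When protein-coding genes were rescaled to a common sum, Nfe2l2 stood at -0.30 log2, and with median-of-ratios scaling at -0.17. Gclm, Srxn1, Prdx1 and Nqo1 were positive under both, while Keap1 and Gclc became positive under both. After protein-coding rescaling the groups of Slc7a11 overlapped, and those of Keap1 no longer did. The share of all genes without overlap on that scale was not computed. Txnrd1 and Gsr were at -0.08 and -0.04 after protein-coding rescaling and at 0.05 and 0.09 after median-of-ratios scaling. Other quantities differed between the same libraries. Small structured RNA took 46.7% and 46.4% of the TPM total without and 49.6% and 53.1% with Mdivi-1. Protein-coding genes of the nuclear chromosomes took 45.0% and 45.2% without and 41.4% and 38.5% with it. The 9 fibroblast markers looked up summed to 483 and 551 TPM in the untreated and to 163 and 118 TPM in the treated libraries, with none of them at 0. Their part in the results was not tested.

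**Figure D2:**
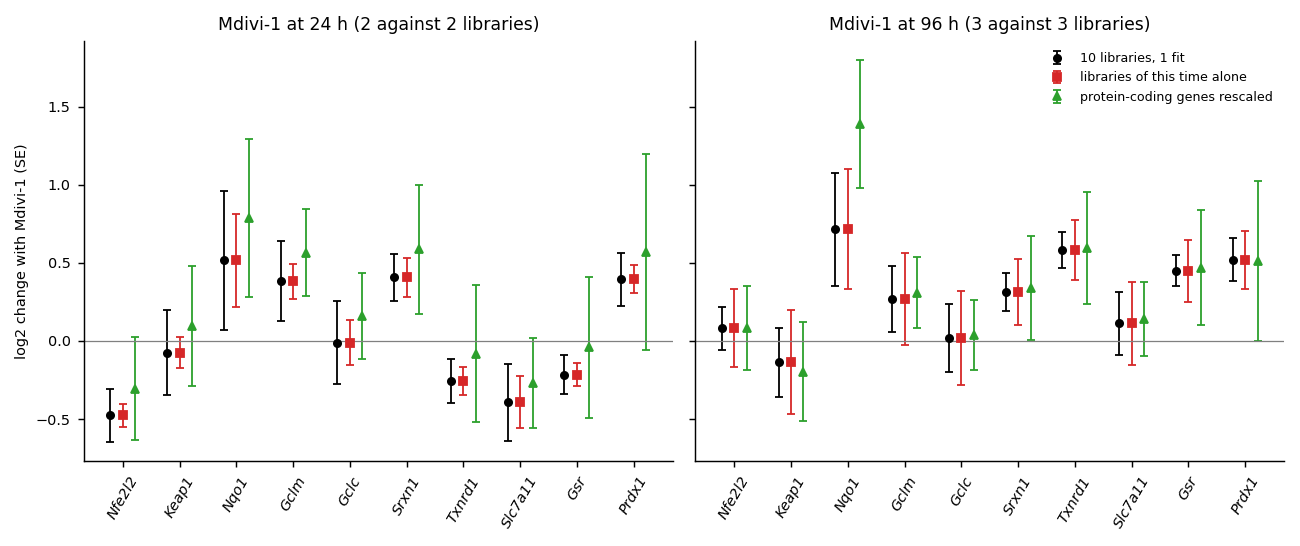
Log2 change with Mdivi-1 at 24 h (left) and 96 h (right) for each gene, with SE, from the model of 10 libraries, from the libraries of that time alone and after rescaling protein-coding genes. At 24 h Nfe2l2 lies below 0 and Gclm, Srxn1 and Prdx1 above it in all 3, and at 96 h Srxn1, Txnrd1, Gsr and Prdx1 lie above 0.

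At 96 h, in TPM as deposited, Srxn1, Txnrd1, Gsr and Prdx1 were higher in every library with Mdivi-1 than in any without it, which was 4 of 10 genes against 2.13% of all genes. After rescaling to the sum of protein-coding genes the groups of all 4 overlapped, while those of Nqo1 and Gclm did not. The share of all genes without overlap on that scale was not computed. Nqo1 was above the receptor median in 1 of 6 libraries of 96 h. In TPM as deposited none of the 10 had lower values without overlap, against 4.05% of all genes. None of the 10 was called by limma in the model of 10 libraries, in which 0.143% of all genes were called. Srxn1, Txnrd1, Gsr and Prdx1 had an unadjusted p under 0.05 in limma's test, as had 1117 of 19631 genes. With protein-coding rescaling 1 of the 10 had one, against 1000 of 19449 genes, and with median-of-ratios scaling 3, against 1043 of 19631. The median change was 0.29 log2 over the 10 genes and -0.06 over all genes tested. In the 96 h libraries alone 0 genes passed limma's test after adjustment, and 433 of 23458 did at an unadjusted p under 0.05, Txnrd1 and Prdx1 among them. With all 12 libraries 0 of the 10 genes were called, where 0.108% of all genes were. Of the 10, 0 then had an unadjusted p under 0.05 in limma's test, against 284 of 17668 genes.

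Txnrd1 was at 11.4, 14.5 and 12.7 TPM in libraries 1, 2 and 3 without Mdivi-1 and at 21.2, 17.9 and 20.0 TPM with it. The change was 0.58 ± 0.11 (log2, SE, n = 3 libraries per group, adjusted p = 0.112). Gsr was at 7.23, 7.20 and 8.80 TPM without and 11.4, 10.7 and 10.6 TPM with Mdivi-1 (0.45 ± 0.10, adjusted p = 0.183). Both enzymes use NADPH, and each had all 3 treated libraries above the untreated ones.

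Prdx1 was at 45.3, 52.1 and 63.7 TPM without Mdivi-1 and at 71.6, 84.8 and 74.3 TPM with it (0.52 ± 0.14, adjusted p = 0.365). Srxn1 was at 4.31, 4.12 and 4.51 TPM without and 5.90, 5.75 and 5.17 TPM with it (0.31 ± 0.12, adjusted p = 0.741). Library 3 without Mdivi-1 stood apart from the other 96 h libraries, with 80.8% of mitochondrial RNA against 58.6% and 62.5% in the other untreated and 67.1% to 70.0% in the treated libraries, and with the lowest receptor background. The part of these shares in the results was not tested. Without it Gsr (0.54 ± 0.08, adjusted p = 0.0237) and Prdx1 (0.65 ± 0.12, adjusted p = 0.0358) rose, while 0.706% of 20402 genes were called higher and the median of all genes was -0.32 log2. Txnrd1 then had an adjusted p of 0.0505. The changes of Txnrd1, Gsr, Prdx1 and Srxn1 lay between 0.28 and 0.67 log2 whichever library was left out.

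The remaining 6 members overlapped between groups at 96 h. Nfe2l2 was at 4.61, 3.40 and 2.83 TPM without Mdivi-1 and at 3.95, 4.02 and 3.49 TPM with it (0.08 ± 0.14), and Keap1 at 1.24, 2.66 and 1.08 against 1.80, 1.02 and 1.27 TPM (-0.14 ± 0.22). Gclm was at 6.02, 4.66 and 2.66 TPM without and 5.16, 5.15 and 5.69 TPM with it (0.27 ± 0.21). Gclc was at 0.936 to 2.06 TPM without and 1.30 to 1.94 TPM with it (0.02 ± 0.22), and Slc7a11 at 1.59 to 2.74 and 2.25 to 2.77 TPM (0.11 ± 0.20). Nqo1 was at 0.625, 1.11 and 0.0987 TPM without and 1.05, 2.25 and 1.49 TPM with Mdivi-1, the highest estimate of the 10 but with a wide error (0.71 ± 0.36, adjusted p = 0.986).

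How far a 96 h value exceeded the receptor background differed between members. In no 96 h library did any of the 1441 receptor genes reach the level of Prdx1. At most 0.486% of them reached Txnrd1 and at most 3.12% reached Gsr. Gclm was above the 90th percentile of the receptor genes in all 6 libraries and Srxn1 in 5. Nfe2l2 was above it in 3, and Keap1 and Slc7a11 in 1 each. Gclc and Nqo1 were above it in none, and up to 66.6% and 93.6% of receptor genes reached them in 1 library. The 96 h values of Nqo1, Gclc, Keap1 and Slc7a11 thus lay mostly within the range of the receptor genes.

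**Figure D3:**
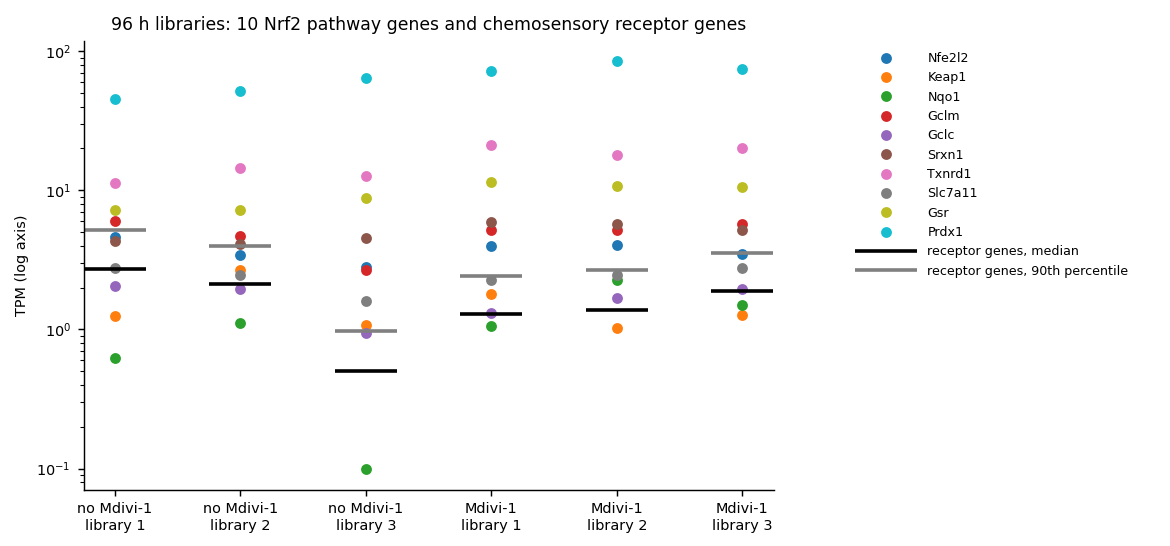
TPM (log axis) of the 10 genes in each 96 h library, with lines at the median and the 90th percentile of 1441 chemosensory receptor genes. Prdx1, Txnrd1, Gsr and Gclm lie above the 90th percentile in all 6 libraries, and Nqo1 and Gclc in none.

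The effect of Mdivi-1 was set against itself at the 2 times in an interaction term. None of the 10 genes was called by limma, and 0.122% of all genes were. An unadjusted p under 0.05 in limma's test was seen for 3 of the 10 and for 868 of 19631 genes. With all 12 libraries none of the 10 had one, against 123 of 17668 genes. Txnrd1 had the largest difference of the 10, 0.84 ± 0.18 log2 (96 h minus 24 h, adjusted p = 0.244), followed by Gsr with 0.67 ± 0.16 (adjusted p = 0.301) and Nfe2l2 with 0.56 ± 0.22 (adjusted p = 0.967). Txnrd1 and Gsr had lower values with Mdivi-1 at 24 h and higher values at 96 h, without overlap at either time in TPM as deposited. Of all genes 40.4% were lower without overlap at 24 h, and 2.13% were higher at 96 h. After protein-coding rescaling the groups of Txnrd1 and Gsr overlapped at 96 h, and with median-of-ratios scaling their 24 h changes were positive. Under either scaling 0 of the 10 genes had an unadjusted p under 0.05 in limma's test of the interaction, against 616 of 19449 and 382 of 19631 genes. For Srxn1 and Prdx1, higher at both times, the differences were -0.09 ± 0.19 and 0.13 ± 0.22.

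Setting each member against Nfe2l2 of the same library gives a measure that a common scaling does not alter. It was chosen after the values were seen and is given without a test. A ratio also rises where Nfe2l2 itself is lower, as it was with Mdivi-1 at 24 h and at 96 h in both groups. At 24 h Prdx1 was 10.7 and 8.74 times Nfe2l2 without Mdivi-1 and 18.5 and 17.1 times with it. Srxn1 was at 0.663 and 0.531 times Nfe2l2 without and at 1.21 and 1.01 times with it, so its transcript lay below that of Nfe2l2 without and slightly above it with Mdivi-1. Gclm had mean ratios of 0.147 ± 0.00787 and 0.271 ± 0.0251 (SD, n = 2), and Keap1 of 0.212 ± 0.00529 and 0.281 ± 0.00725. Slc7a11 showed almost the same ratio in both groups, 0.0662 ± 0.0122 and 0.0671 ± 0.0135.

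At 96 h the mean ratio was higher for every member, in both groups. Txnrd1 was at 2.47, 4.26 and 4.48 times Nfe2l2 without and at 5.37, 4.44 and 5.72 times with Mdivi-1, and the groups overlapped. Gsr was at 1.57, 2.11 and 3.11 against 2.88, 2.67 and 3.03 times, and Prdx1 at 9.84, 15.3 and 22.5 against 18.1, 21.1 and 21.3 times. In library 3 without Mdivi-1 the ratios of Gsr, Prdx1 and Srxn1 were above those of all treated libraries. Nfe2l2 itself was near the receptor background at 96 h, which its ratios share.

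**Figure D4:**
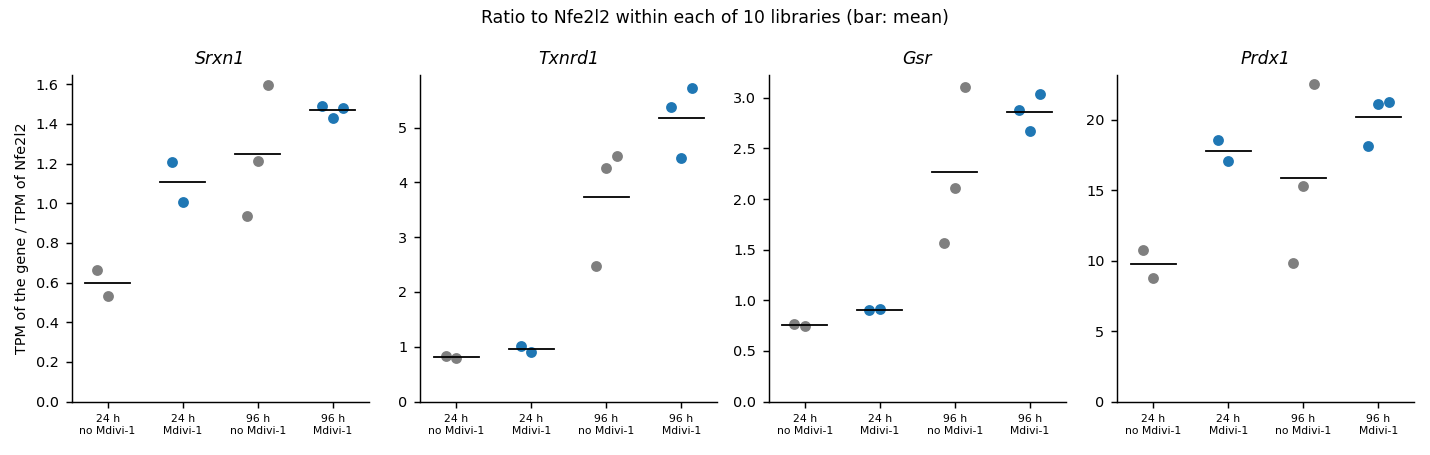
Ratio of the TPM of Srxn1, Txnrd1, Gsr and Prdx1 to that of Nfe2l2 within each of 10 libraries, with bars at the group mean. At 24 h, where Nfe2l2 itself was lower with Mdivi-1, the treated libraries lie above the untreated ones for all 4 genes, and at 96 h the groups overlap.

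Between 24 h and 96 h the members were lower in TPM, with and without Mdivi-1. Of the 10 genes 9 fell without Mdivi-1 and 9 with it, where 46.9% and 44.0% of all genes were called lower, and Nqo1 was the exception both times. The same 9 had non-overlapping lower values at 96 h, against 49.0% of all genes without and 48.3% with Mdivi-1. The median change was -2.91 log2 without and -2.38 with Mdivi-1, against -0.41 and -0.12 over all genes. Among genes with a mean of at least 5 TPM, the 8 members tested had medians of -3.18 and -2.88 against -2.58 and -2.43 over all. All 8 were called lower without and with Mdivi-1, as were 5170 and 5121 of the 5813 genes of that filter. Most genes at such levels were thus lower at 96 h, members or not. The summed macrophage markers were also lower at 96 h in every library, as given above, and their part in the result was not tested. The time comparisons share their libraries with those of Mdivi-1. With all 12 libraries none of the members was called in either by limma, while 28.3% and 31.8% of all genes were. None of the members then had an unadjusted p under 0.05 in limma's test, against 6609 and 6717 of 17668 genes.

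In TPM as deposited, Nfe2l2 had the largest fall of the 10 without Mdivi-1, -4.53 ± 0.16 log2 (adjusted p = 2.65e-09), and Prdx1 with it, -4.10 ± 0.15 (adjusted p = 4.74e-09). Srxn1 changed by -3.57 ± 0.14 without and -3.66 ± 0.14 with Mdivi-1, and Keap1 by -3.17 ± 0.25 and -3.23 ± 0.25. Txnrd1 changed by -2.65 ± 0.13 without and -1.81 ± 0.13 with it, and Gsr by -3.20 ± 0.11 and -2.53 ± 0.11. Gclc changed by -2.26 and -2.23, Gclm by -1.63 and -1.75 and Slc7a11 by -1.29 and -0.78. These genes and Nqo1 had the lowest mean levels of the 10 at 24 h. A gene that starts lower has less room to fall on the log2(TPM + 1) scale. At 96 h Gclc and Slc7a11 also lay mostly within the range of the receptor genes. Nqo1 was at -0.79 ± 0.40 (adjusted p = 0.0890) and -0.59 ± 0.40 (adjusted p = 0.192).

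The scaling bore on the direction over time. Median-of-ratios scaling moved the median of all genes to 0.97 log2 without and 1.04 with Mdivi-1. Under it 5 members were called lower in each comparison, where 15.2% and 16.8% of all genes were. Slc7a11 was called higher, where 47.4% and 49.3% of all genes were, at 0.53 ± 0.18 (adjusted p = 0.0264) and 0.84 ± 0.18 (adjusted p = 0.00286). Gclm and Nqo1 were then positive in both comparisons and Txnrd1 with Mdivi-1 only. Nfe2l2, Prdx1, Srxn1 and Keap1 were called lower under every scaling. With protein-coding genes rescaled 8 members were called lower in each, without Slc7a11 and Nqo1, against 37.7% and 36.1% of all genes. With the receptor median subtracted before that rescaling, 10 were called lower without Mdivi-1 and 8 with it, against 72.1% and 69.9% of all genes.

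**Figure D5:**
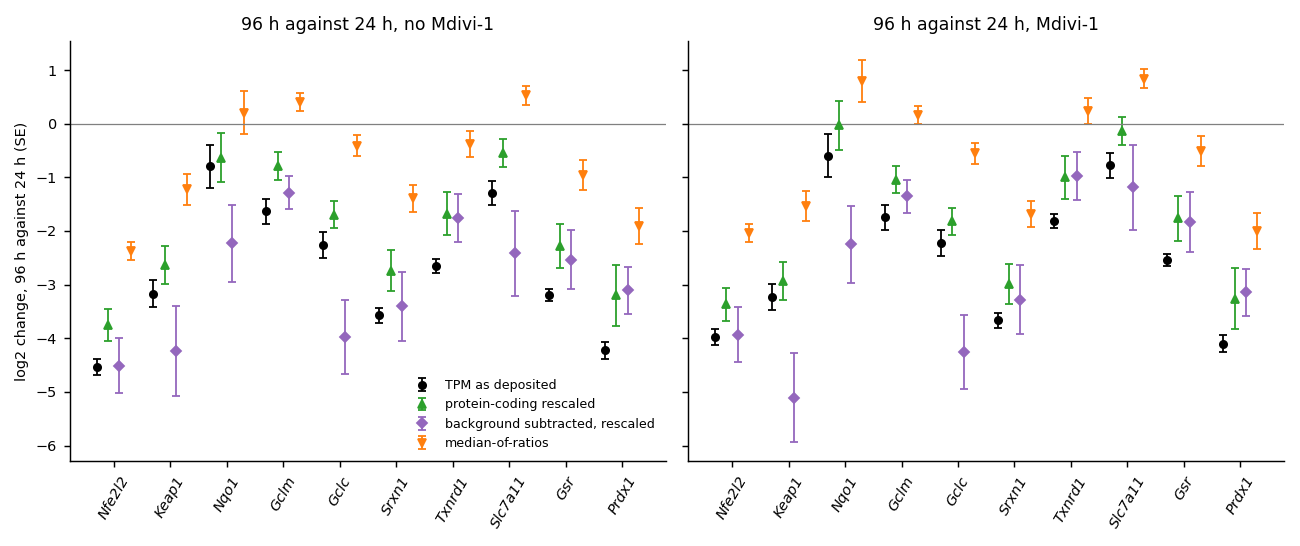
Log2 change from 24 h to 96 h with SE for each gene, without (left) and with Mdivi-1 (right), for TPM as deposited and 3 other scalings. Nfe2l2, Keap1, Gclc, Srxn1, Gsr and Prdx1 lie below 0 under all 4, and Slc7a11, Nqo1 and Gclm lie above 0 with median-of-ratios scaling.

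Other genes of the pathway were looked up as lists. At 24 h none of the genes tested was called in any of them, which were 10 of Nrf2 control and its partners, 14 of glutathione, 12 of thioredoxin and peroxiredoxin, and 20 of detoxification and NADPH supply. At an unadjusted p under 0.05 in limma's test there were 0, 1, 4 and 2, and 1205 of all 19631 genes. Their median changes were -0.21, -0.13, -0.18 and 0.00 log2, against -0.06 over all genes. Values were below 0 for 10 of 10, 11 of 14, 12 of 12 and 10 of 20 genes. These counts moved with the scaling, to 7, 5, 7 and 7 after protein-coding rescaling and to 2, 3, 5 and 4 with median-of-ratios scaling, where the medians were 0.07, 0.14, 0.07 and 0.26. With the 24 h libraries alone, where 21.2% of all genes were called lower and 0.666% higher, 5 of 12 thioredoxin genes were called lower and 0 higher. Of 19 detoxification genes 4 were called higher and 2 lower, and of 14 glutathione genes 1 each way. Of the 10 control genes limma called 0, with 3 at an unadjusted p under 0.05, where 4407 of 11105 genes were. The median changes of the 4 lists in that model were -0.21, -0.13, -0.18 and -0.01 log2, against -0.22 over its 11105 genes. None of the 4 lists thus had a median below that of all genes there.

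At 96 h 1 gene of the control list and 1 of the detoxification list rose with Mdivi-1, where 0.102% of all genes were called higher. They were Sqstm1, which encodes the p62 protein that sequesters Keap1 (1.09 ± 0.10 log2, adjusted p = 0.00328), and Hmox1, heme oxygenase (1.71 ± 0.11, adjusted p = 4.66e-04). Neither was called with the 96 h libraries alone (adjusted p = 0.420 and 0.0905), with protein-coding rescaling (0.848 and 0.678) or with all 12 libraries (1 for both). With median-of-ratios scaling limma called Hmox1 (adjusted p = 0.0492) but not Sqstm1 (0.251). In the model that called them none of the 10 members was called. Among the members, Srxn1, Txnrd1, Gsr and Prdx1 were higher without overlap in TPM as deposited, and Nqo1 was above the receptor median in 1 of 6 libraries. Of 14 glutathione genes 0 were called, with 5 at an unadjusted p under 0.05. The extremes were Slc3a2, the partner chain of Slc7a11 in the cystine carrier (0.50 ± 0.10, adjusted p = 0.108), and Gpx1, a glutathione peroxidase (-0.49 ± 0.10, adjusted p = 0.112). Of 12 thioredoxin and peroxiredoxin genes 0 were called, with 4 at an unadjusted p under 0.05. Their extremes were Txnip, the thioredoxin inhibitor (0.75 ± 0.13, adjusted p = 0.0789), and Msrb1, a methionine sulfoxide reductase (-0.51 ± 0.22, adjusted p = 0.805). Txn1, the thioredoxin that Txnrd1 reduces, was at 19.2 ± 5.76 TPM without and 18.9 ± 3.02 TPM with Mdivi-1 (0.01 ± 0.18). The median changes of the 4 lists at 96 h were -0.02, -0.05, 0.04 and 0.03 log2.

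Over time the same lists were mostly lower in TPM as deposited, where 46.9% and 44.0% of all genes were called lower without and with Mdivi-1. When the test was limited to 5813 genes averaging 5 TPM or more, 5170 and 5121 fell in these 2 comparisons. The lists were not counted under that filter, so the counts below do not set them apart from other genes of such levels. Of the genes tested in the control, glutathione, thioredoxin and detoxification lists, 9 of 10, 12 of 14, 12 of 12 and 19 of 20 fell without Mdivi-1. With Mdivi-1 the numbers were 9 of 10, 10 of 14, 12 of 12 and 18 of 20. With median-of-ratios scaling 3, 8, 7 and 13 were called lower without Mdivi-1 and 0, 3, 0 and 3 higher. With Mdivi-1 2, 9, 7 and 13 were then lower and 1, 3, 1 and 3 higher. The genes whose TPM followed Nfe2l2 most closely over the 10 libraries, among 5813 genes with a mean of at least 5 TPM, were Ifi206 (Pearson r = 0.9995), Rer1 (r = 0.9994) and Fech (r = 0.9992). These libraries fall into 2 kinds by time, and many genes share that contrast.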

How the data were processed

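RNA sequencing of 12 libraries was analysed. Per the labels' protocols, RNA was taken in TRIZOL, ribosomal RNA was removed from 100 ng of total RNA, and strand-marking libraries were made with NEBNext kits. The values are TPM as deposited by the authors, and each column sums to 1000000, so sequencing depth is unknown and no counting error can be given. The aligner, the counter and the annotation were not given in the sources used here. Submitters' processing notes name the human build hg19, yet 99.5% of the identifiers are mouse genes in GENCODE M21, and the only coordinates printed are those of the RefSeq windows. Columns were matched to samples by name.

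The 10 genes, the other lists and the tests were chosen with earlier results of these data known. Genes with a mean of at least 1 TPM in the 10 libraries used (19631) were fitted as log2(TPM + 1), 4 groups in 1 model, by limma-trend (R 4.3.3 with limma 3.58.1), with 6 residual degrees of freedom. Both 24 h libraries numbered 3 were left out. Contrasts were Mdivi-1 at 24 h and at 96 h, their difference, and time in both treatments. All p-values come from limma, and adjusted values are by Benjamini-Hochberg over all genes tested, called under 0.05. Fold changes on this scale understate those of genes near 1 TPM. The 10 genes are named in every comparison. Of the other lists, Hmox1, Sqstm1, Txn1 and called genes are named, or else the 2 largest changes at 96 h. Alternatives were other libraries, pseudocounts, filters, scalings, a replicate block and each library left out. On simulated data with 100 genes changed 2-fold and 100 changed 4-fold, 65 and 95 were found at 24 h, and 89 and 97 at 96 h. Tables and plots used Python 3.11.15, pandas 2.3.3, numpy 2.4.6 and matplotlib 3.10.9.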

Additional observations from a re-analysis of the deposited data

Results flagged for a closer look

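For Txnrd1 and Gsr the treated libraries lay below the untreated ones at 24 h and above them at 96 h, without overlap at either time in TPM as deposited. Of all genes 40.4% were lower without overlap at 24 h, and 2.13% were higher at 96 h. The share of all genes with both was not computed, and Txnrd1 and Gsr were picked by these values. After rescaling to the sum of protein-coding genes the groups of both overlapped at 96 h. The difference of the effects (96 h minus 24 h) was 0.84 ± 0.18 log2 for Txnrd1 (limma, adjusted p = 0.244) and 0.67 ± 0.16 for Gsr (adjusted p = 0.301), so neither passed the threshold after adjustment. Over all libraries left out in turn, the differences were 0.73 to 0.95 for Txnrd1 and 0.62 to 0.75 for Gsr. The sign at 24 h was positive for both with median-of-ratios scaling (0.05 and 0.09).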

How the results depend on the processing

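The direction of the Mdivi-1 effect held under every alternative run for Nqo1, Gclm, Srxn1 and Prdx1 at both times, for Nfe2l2 and Slc7a11 at 24 h and for Txnrd1 and Gsr at 96 h. The groups of Nqo1 overlapped at both times in TPM as deposited, and it was above the receptor median in 1 of 6 libraries of 96 h. With 1 library left out, the lowest change was 0.064 log2 for Nqo1 at 24 h and 0.0064 for Gclm at 96 h. Of the values of single genes under all alternatives, 922 kept their direction and their side of the threshold, 54 changed direction, 10 passed the threshold anew and 24 no longer passed it. Where no cause is given below, the cause was not tested.

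Genes called at 24 h were 58 as reported, and 26 with a pseudocount of 0.1, 411 with 5, 32 with no filter, 15 with protein-coding rescaling, 0 with median-of-ratios scaling (266 at an unadjusted p under 0.05), 350 with background subtracted, 339 with background subtracted and protein-coding rescaling (added after seeing the data), 2424 in the 24 h libraries alone (4 of the 10 genes) and 0 with all 12 libraries. At 96 h the 28 became 17 with a pseudocount of 5, 46 with no filter, 51 at a mean of at least 5 TPM, 3 with protein-coding rescaling, 5 with background subtracted, 11 with that rescaled as well, and 0 in the 96 h libraries alone. For the difference of effects 24 became 148 with a pseudocount of 5, 13 with no filter, 2 and 1 with protein-coding rescaling and median-of-ratios scaling, 211 with background subtracted, 218 with that rescaled, and 0 with all 12 libraries (123 at an unadjusted p under 0.05). For time without and with Mdivi-1, 16342 and 15580 genes became 5003 and 5615 with all 12 libraries (0 of the 10 genes in both), 5704 and 5669 at a mean of at least 5 TPM, where fewer genes were tested, and 9734 and 9519 with background subtracted and rescaled. The split of higher and lower calls over time without Mdivi-1 was 7128 and 9214, but 9313 and 2975 with median-of-ratios scaling and 924 and 8810 with background subtracted and rescaled.

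Leaving out 1 library gave 0 to 356 genes at 24 h, 4 to 806 at 96 h, 0 to 84 for the difference, 12298 to 18156 for time without and 11264 to 17603 with Mdivi-1. Of the 10 genes 0 were called at 24 h and for the difference, 0 to 2 at 96 h, 9 for time without and 8 to 9 with Mdivi-1, where Slc7a11 was lost without 24 h library 1 of the Mdivi-1 group. The highest counts at 24 h, 96 h and for the difference came without 96 h library 3 of the untreated group. Without library 1 of that group they were 162, 57 and 34, and without its library 2 the count at 96 h was 14. Leaving out any 24 h library, which leaves 1 library in its group that is assumed to vary like the other groups, gave 0 at 24 h and for the difference and 4 to 10 at 96 h, and leaving out any 96 h Mdivi-1 library gave 8 at 96 h. Directions that changed in this way lay at -0.18 to 0.16 for Gclc at 24 h. At 96 h they lay at -0.19 to 0.14 for Gclc, -0.29 to 0.12 for Keap1, -0.045 to 0.23 for Nfe2l2 and -0.047 to 0.22 for Slc7a11. For the difference they lay at -0.18 to 0.20 for Gclc, -0.38 to 0.10 for Gclm, -0.22 to 0.19 for Keap1, -0.25 to 0.65 for Nqo1 and -0.26 to 0.071 for Srxn1.

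Other changes of direction were small or came with scaling. At 24 h Keap1 and Gclc were at 0.10 and 0.16 after protein-coding rescaling, with or without background subtraction, and at 0.20 and 0.24 with median-of-ratios scaling, where Txnrd1 and Gsr were at 0.047 and 0.086. Gclc at 96 h was at -0.0036 with background subtracted and -0.12 with that rescaled. For the difference, all 12 libraries gave Gclm 0.081 and Srxn1 0.14, and a pseudocount of 5 gave Keap1 0.0042. With background subtracted Nqo1 was at -0.21, Gclm at 0.024 and Srxn1 at 0.17, and with that rescaled Nqo1 was at -0.020, Gclc at -0.28, Srxn1 at 0.12 and Prdx1 at -0.035. Protein-coding rescaling gave Gclc -0.12 and Prdx1 -0.061, and median-of-ratios scaling -0.14 and -0.10. Over time without Mdivi-1, median-of-ratios scaling gave Nqo1 0.21, Gclm 0.41 and Slc7a11 0.53. With Mdivi-1 it gave Nqo1 0.79, Gclm 0.16, Txnrd1 0.24 and Slc7a11 0.84, while all 12 libraries gave Nqo1 0.0062, Txnrd1 0.16 and Slc7a11 0.039.

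Over the 10 libraries, those of 96 h with the same number did not deviate together (correlation of their departures from the group mean over genes -0.11, -0.02 and -0.24). At 24 h the value was -0.02, but 2 libraries per group allow only 1 size of correlation, so it cannot decide. Both 24 h libraries numbered 3, left out of this check, were alike in their mitochondrial RNA (95.2% and 96.0%). The labels do not say that a number marks a shared culture, and the numbers were not taken as pairs. With the replicate number as a block 1 gene was called at 24 h, 3 at 96 h and 4 for the difference, none of them among the 10, and 16076 and 15359 over time with 9 of the 10 in each. Depth is unknown for TPM.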

Other observations

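Over the 10 libraries, the gene whose TPM followed Nqo1 most closely among 5813 genes was Akr1b8, an aldo-keto reductase and another Nrf2 target (Pearson r = 0.839 on the log2(TPM + 1) scale). Phf10 (r = 0.774) and Gm23502 (r = 0.758) came next. At 96 h Nqo1 was above the receptor median in 1 of 6 libraries. Nqo1 and Akr1b8 were picked as a pair after their values were seen. Akr1b8 was at 21.5 ± 3.67 TPM without and 36.5 ± 5.81 TPM with Mdivi-1 at 24 h (SD, n = 2; 0.74 ± 0.20 log2, adjusted p = 0.256). With the 24 h libraries alone it was called higher (adjusted p = 0.00589). At 96 h it was at 11.1 ± 1.83 and 14.1 ± 2.37 TPM (SD, n = 3; 0.32 ± 0.17 log2, adjusted p = 1). All 10 libraries share the contrast between the times.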
